A study of Mus musculus with 6 samples.

Results

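The nuclear-encoded genes of the mitochondrial respiratory chain were examined in mouse induced pluripotent stem cells (iPSCs) with and without serum response factor (SRF). Members were chosen by name: entries that start with Nduf, Uqcr or Atp5, the 4 succinate dehydrogenase genes Sdha, Sdhb, Sdhc and Sdhd, and the cytochrome c oxidase genes whose names run from Cox4 to Cox8. This gave 92 of the 24421 gene entries of the count table, of which 89 had a mean of 10 or more counts over the 6 libraries. The 3 others were Cox6a2, Cox8b and Cox8c. Of the 92 genes, 36 encode subunits of complex I, 7 its assembly factors, 4 complex II, 8 complex III, 20 complex IV and 15 complex V, while Atp5s and Atp5sl carry an Atp5 name but are not structural subunits of the ATP synthase. Ndufa4 and its paralog Ndufa4l2 were placed with complex IV, where the Ndufa4 protein is found.

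The respiratory chain passes electrons from NADH (through complex I) and succinate (through complex II) by way of coenzyme Q, complex III and cytochrome c to complex IV, which reduces oxygen. Complexes I, III and IV pump protons across the inner mitochondrial membrane, and complex V, the ATP synthase, uses the proton gradient to make ATP. Pluripotent cells carry a working chain while drawing much of their ATP from glycolysis. Most subunits are encoded in the nucleus. The subunits encoded in mitochondrial DNA were not analysed here.

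Bulk RNA was sequenced from 3 libraries of iPSCs with both Srf alleles deleted (SRFΔ/Δ, SRF KO) and 3 of iPSCs with intact floxed alleles (SRFf/f, WT), both kept in medium with serum. Per the labels the libraries are replicates, but whether these are separate clones or cultures of 1 clone, and how and when Srf was deleted, are not given in the sources used here, so p-values measure the spread between these libraries only. Library totals ran from 26321602 to 36680156 counts. Srf itself fell from 34.5 ± 4.14 to 3.97 ± 0.707 CPM (SD, n = 3; counts per 1000000 after TMM scaling of library sizes), which is -3.12 on the log2 scale (SE 0.13, edgeR adjusted p 8.1e-09). Log2 changes are given as SRF KO over WT throughout.

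The cell type named in the labels was checked against marker lists. The 10 pluripotency markers were all detected and summed to between 5400 and 5522 CPM in SRF KO and to 6278 to 6757 CPM in WT, with 4 lower and 1 higher in SRF KO. All 12 fibroblast markers were higher in SRF KO, with sums of 880 to 1049 CPM against 432 to 488 CPM in WT. All 11 tested markers of primitive and visceral endoderm, of 12 listed, were higher as well, with sums of 1510 to 1629 CPM against 123 to 134 CPM. Of 9 striated muscle markers, 4 had a mean under 10 counts and 1 of the 5 tested was lower, with sums of 45.5 to 47.6 CPM against 50.6 to 55.5 CPM. These shifts accompany every comparison that follows, and their part in it was not tested. In bulk RNA, fewer cells of a type and less RNA per cell cannot be told apart.

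Most respiratory chain genes differed little between SRF KO and WT cells. Of the 89 genes, 16 were lower and 4 higher in SRF KO with edgeR (Benjamini-Hochberg adjusted p under 0.05), together 22.5%, whereas 41.1% of all 15611 entries tested passed (20.7% lower and 20.4% higher). By class, the share called was 19.4% of complex I subunits, 42.9% of its 7 assembly factors and 25.0% of complex II. It was 0.0% of complex III, 29.4% of complex IV and 20.0% of complex V. The falls included the complex IV paralog Ndufa4l2, the complex I subunit Ndufv3, the assembly factor Ndufaf6 and the complex IV genes Cox7a2l and Cox5a, and the rises were Cox4i2, Ndufa13, Ndufaf4 and Atp5g1. Only Ndufa4l2 and Cox4i2 differed by a log2 change of 1 or more. The median log2 fold change was -0.05 over the 89 genes and -0.02 over all entries, and the median size of the difference regardless of direction was 0.086 and 0.20. The median of the 89 genes ran from -0.07 without WT replicate 2 to -0.03 without SRF KO replicate 2, and with total counts as the only scaling it was -0.011, where all entries had 0.02. An absolute log2 fold change under 0.2 was found for 70 of the 89 genes (78.7%) and for 49.4% of all entries. The cumulative plot of these sizes shows both distributions, which were not matched for count level. The entries tested also include transposable element subfamilies and genes near the count filter.

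**Figure D1:**
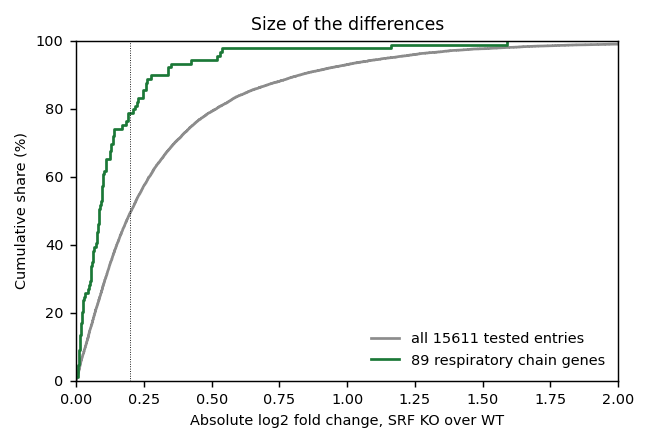
Cumulative share of entries (y axis, percent) against the absolute log2 fold change between SRF KO and WT (x axis, shown to 2) for the 89 respiratory chain genes (green) and all 15611 tested entries (grey). At the dotted line at 0.2 the green curve has reached 78.7% and the grey curve 49.4%. The 2 sets were not matched for count level.

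Among the 69 genes that did not pass the threshold, the 95% interval of the fold change lay inside 0.8-fold to 1.25-fold for 58 and reached beyond it for the others. The TMM-scaled SRF KO and WT values did not overlap for 29 of the 89 genes (32.6%, against 51.4% of all entries). Of these, 26 were lower and 3 higher in SRF KO, a split by direction that was not counted over all entries. WT replicate 2 was the lowest of the WT libraries for 55 of the 89 genes, and SRF KO replicate 2 the lowest of the SRF KO libraries for 49. Without WT replicate 2, 27 genes were lower and 4 higher, while the share of all entries called rose from 41.1% to 48.1%. Leaving out SRF KO replicate 1 or SRF KO replicate 3 gave 2 genes higher in each case, with 30.4% and 30.8% of all entries called. The coefficient of variation between replicates had a median over the members of 3.86% in SRF KO and 7.06% in WT, and of 3.54% in WT replicates 1 and 3 alone.

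**Figure D2:**
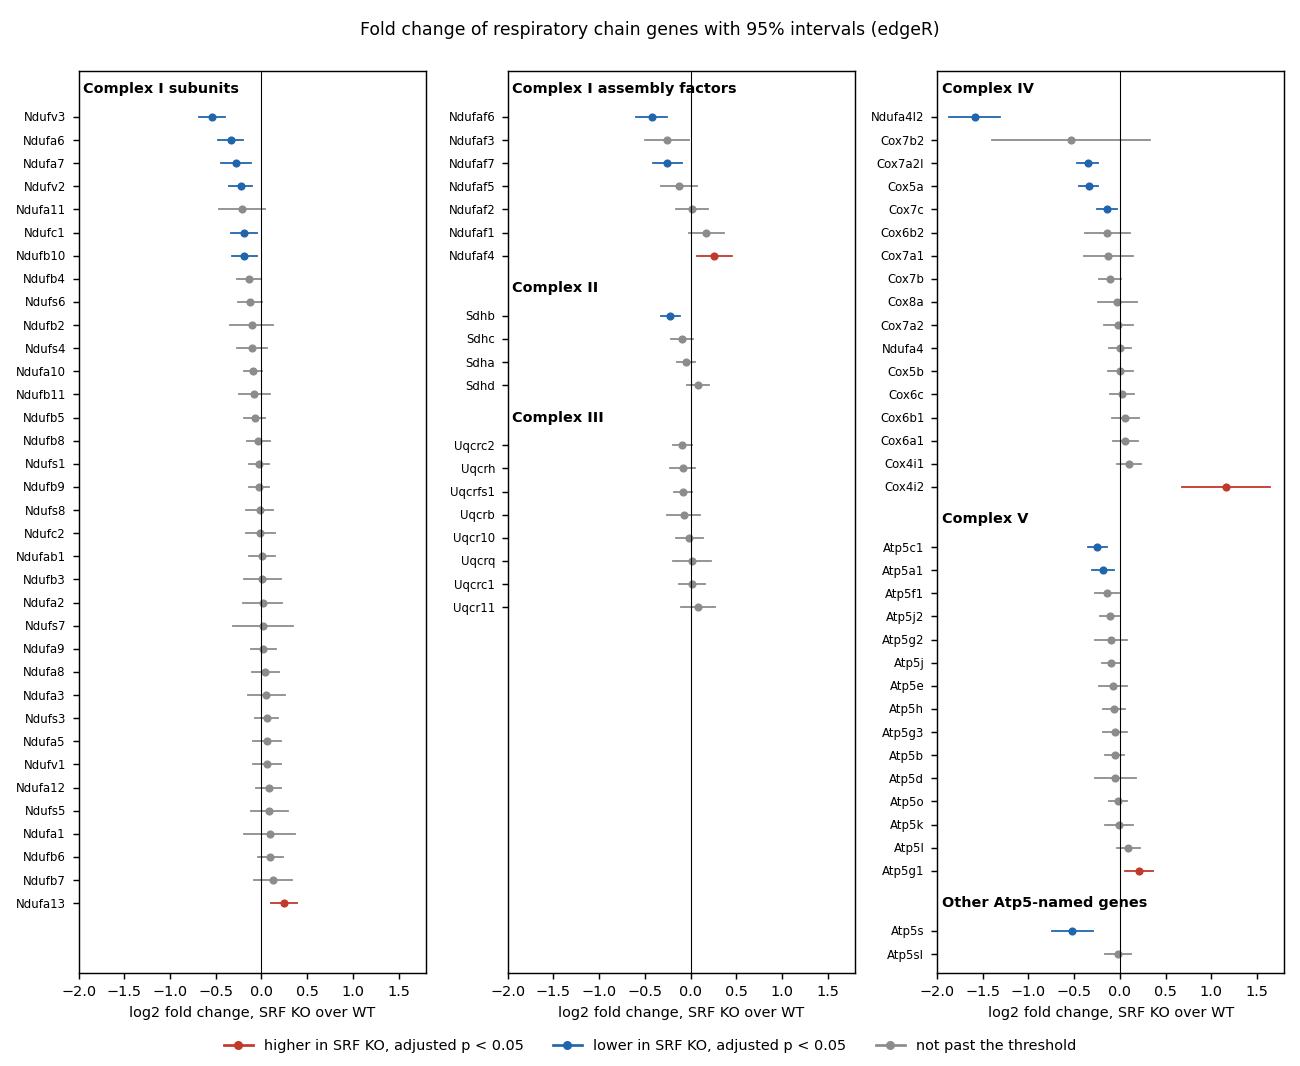
Log2 fold change of SRF KO over WT (x axis) for 88 of the 89 genes, grouped by complex, with points for the edgeR estimate and lines for its 95% interval. Blue and red mark the 16 genes lower and the 4 higher at an adjusted p under 0.05, and grey 68 that did not pass. Ndufa4l2 at -1.59 and Cox4i2 at 1.16 lie apart from the rest.

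Promoters were compared because nuclear respiratory chain genes are known for shared sites of nuclear respiratory factor 1 (NRF1), ETS-family factors such as GABPA, YY1 and estrogen-related receptors (ERR). RefSeq sequences (GRCm38.p6) of 250 bases before to 50 bases after a transcription start were at hand for 72 of the 89 genes, in 77 windows. The NRF1 core GCGCATGC, searched on both strands, occurred in 12 of these windows (15.6%), against 2.71% of all 32851 windows. The YY1 core AAGATGGC occurred in 9 (11.7%, against 2.75%), the ETS core CCGGAAGT in 5 (6.49%, against 3.89%) and the ERR site TCAAGGTCA in 2 (2.60%, against 0.423%). The CArG box, the motif bound by SRF, was found in 0 of the 77 windows and in 1.63% of all windows, and 77 windows are few for a motif this rare. Ndufa4l2 and Cox4i2, the 2 genes with a log2 change of 1 or more, had no window and were not searched. The same holds for the called genes Ndufaf6, Atp5a1 and Atp5s. A match is a run of letters and not a measured binding site, and a window without one says nothing of the factor.

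Of the 12 genes with the NRF1 core, Ndufa6 and Sdhb were lower in SRF KO, Ndufaf4 was higher and the other 9 did not pass the threshold. Of the 9 with the YY1 core, Ndufc1 was lower. Over all entries 41.1% were called, and the calls of Ndufaf4 and Ndufc1 were lost in several fits given below. The 4 called genes were chosen for display, as the NRF1 core occurs beside the starts of genes that moved in opposite directions. Their windows, of Ndufa6, Sdhb, Ndufaf4 and Ndufc1 in turn, are shown 5′ to 3′ along the gene's strand with the NRF1 or YY1 core in capitals. They lie at chr15:82354242-82354541 (minus strand), chr4:140961021-140961320 (plus), chr4:24897833-24898132 (plus) and chr3:51408906-51409205 (minus). In Ndufa6 the NRF1 core takes bases 168 to 175 of the window and in Sdhb bases 197 to 204. In Ndufaf4 it occurs as 2 overlapping matches on opposite strands between bases 138 and 147, and again from base 252 to 259. In Ndufc1 the YY1 core takes bases 273 to 280.
Ndufa6: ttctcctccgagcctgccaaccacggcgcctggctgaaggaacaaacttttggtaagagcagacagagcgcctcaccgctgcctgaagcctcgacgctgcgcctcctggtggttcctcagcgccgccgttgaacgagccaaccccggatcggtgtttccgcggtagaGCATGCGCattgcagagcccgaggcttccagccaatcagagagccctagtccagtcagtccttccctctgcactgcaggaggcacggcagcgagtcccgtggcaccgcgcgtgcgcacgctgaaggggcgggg
Sdhb: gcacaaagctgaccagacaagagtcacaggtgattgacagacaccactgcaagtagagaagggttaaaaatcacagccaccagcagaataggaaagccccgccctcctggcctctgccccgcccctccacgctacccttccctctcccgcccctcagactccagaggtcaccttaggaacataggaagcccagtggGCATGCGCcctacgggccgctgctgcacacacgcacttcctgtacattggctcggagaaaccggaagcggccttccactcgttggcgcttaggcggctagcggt
Ndufaf4: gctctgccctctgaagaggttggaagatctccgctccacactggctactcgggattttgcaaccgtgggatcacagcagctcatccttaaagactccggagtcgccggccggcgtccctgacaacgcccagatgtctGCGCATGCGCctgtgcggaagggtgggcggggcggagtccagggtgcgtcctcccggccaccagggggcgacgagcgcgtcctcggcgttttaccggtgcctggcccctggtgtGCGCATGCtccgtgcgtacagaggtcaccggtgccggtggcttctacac
Ndufc1: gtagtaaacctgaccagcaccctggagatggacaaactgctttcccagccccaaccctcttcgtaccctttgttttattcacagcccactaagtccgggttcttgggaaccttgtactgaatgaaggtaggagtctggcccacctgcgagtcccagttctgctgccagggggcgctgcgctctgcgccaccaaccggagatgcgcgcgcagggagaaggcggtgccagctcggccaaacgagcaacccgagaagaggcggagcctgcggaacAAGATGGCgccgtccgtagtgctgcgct

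Complex I oxidises NADH. Of its 36 subunits, 6 were lower and 1 higher in SRF KO, with a median log2 change of -0.02. Of the 7 core subunits, among them those that hold the redox centres, 1 was lower, and of the 29 accessory subunits 5 were lower and 1 higher. The fold changes of the 29 subunits that did not pass ran from -0.22 to 0.13. Across the fits that left out 1 library, between 3 and 9 subunits were lower, with 3 when SRF KO replicate 2 was dropped and 9 when WT replicate 2 was. Dropping SRF KO replicate 3 gave 0 higher. The median moved to -0.06 and -0.0081 when WT replicates 2 and 1 were dropped in turn, and to -0.04 and 0.0067 for SRF KO replicates 1 and 2. It was 0.02 with total counts as the only scaling.

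Ndufv3, an accessory subunit of the NADH-oxidising end of the complex, had the largest fall among the subunits. It stood at 34.2, 30.7 and 34.4 CPM in SRF KO replicates 1 to 3 and at 50.4, 45.8 and 47.8 CPM in the WT replicates. Every SRF KO library lay below every WT library, with a fall of 31.1% and a log2 change of -0.54 (SE 0.07, edgeR adjusted p 5.49e-05). Its gene lies at chr17:31520115-31531331 (GRCm38). Ndufv2, a core subunit of the same end that holds an iron-sulfur cluster, stood at 105, 104 and 109 CPM against 118, 134 and 119 CPM, a log2 change of -0.23 (SE 0.06, edgeR adjusted p 0.00868). The other core subunits of that end, Ndufs1 and the flavin-binding Ndufv1, had log2 changes of -0.03 and 0.06 and did not pass.

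Ndufa6, whose NRF1 core is shown with its promoter, was at 35.7, 32.7 and 35.9 CPM in SRF KO and at 46.4, 43.8 and 41.7 CPM in WT, a log2 change of -0.34 (SE 0.06, edgeR adjusted p 0.00137). Ndufa7, another accessory subunit, was at 90.5, 79.6 and 89.1 CPM against 108, 92.9 and 113 CPM, a log2 change of -0.28 (SE 0.08, edgeR adjusted p 0.0118). Its call was lost without SRF KO replicate 2 (edgeR adjusted p 0.055). Ndufc1 and Ndufb10, accessory subunits of the membrane arm, each had a log2 change of -0.19 (edgeR adjusted p 0.0304 and 0.0284), and both calls were lost without any of the 3 SRF KO libraries or WT replicate 1, and that of Ndufc1 also without WT replicate 3. Both were lost under DESeq2 and with total counts as the only scaling as well.

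Ndufa13, also known as GRIM-19, was the only subunit of complex I that rose. It was at 49.7, 46.5 and 51.6 CPM in SRF KO and at 43.7, 38.9 and 41.9 CPM in WT, without overlap, a log2 change of 0.25 (SE 0.06, edgeR adjusted p 0.00893). Without SRF KO replicate 3 its adjusted p was 0.0548. The annotation (GENCODE M21) places 30.0% of its exon bases inside Tssk6, on the opposite strand, which had between 1 and 6 counts in every library. The X-linked Ndufa1 and Ndufb11 did not pass the threshold, at log2 changes of 0.09 and -0.08, though Ndufb11 passed without WT replicate 2.

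Assembly factors build complex I and are not part of the finished enzyme. Of the 7 Ndufaf genes, 2 were lower and 1 higher. Ndufaf6 was at 9.81, 10.7 and 10.7 CPM in SRF KO and at 14.2, 13.9 and 13.7 CPM in WT, again without overlap, a log2 change of -0.42 (SE 0.08, edgeR adjusted p 0.00102). Ndufaf7, a methyltransferase, was at 21.9, 23.5 and 20.3 CPM against 25.4, 26.7 and 26.4 CPM, a log2 change of -0.26 (SE 0.07, edgeR adjusted p 0.0139), and missed the threshold when SRF KO replicate 1 (edgeR adjusted p 0.0521) or SRF KO replicate 3 (0.0801) was left out. The number of these 7 genes lower was then 1, and it was 3 without WT replicate 2. The number higher was 0 without SRF KO replicate 1 or 2 and without WT replicate 3.

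Ndufaf4, which acts early in assembly, moved the other way. It was at 42.2, 48.7 and 39.6 CPM in SRF KO and at 36.1, 40.1 and 32.9 CPM in WT, a log2 change of 0.26 (SE 0.09, edgeR adjusted p 0.0352). It was the only gene of the 20 called whose groups overlapped, and its call was lost without SRF KO replicate 1 or 2 and without WT replicate 1 or 3. A separate list of 8 complex I assembly genes with other names had 2 lower and 0 higher, which were Nubpl at -0.47 and Timmdc1 at -0.29 (log2 fold changes; edgeR adjusted p 0.00082 and 0.0114).

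Complex II is succinate dehydrogenase, which links the citric acid cycle to the chain. Of its 4 subunits, 1 was lower and 0 higher. Sdhb, the iron-sulfur subunit, was at 58.5, 58.6 and 58.3 CPM in SRF KO and at 69.7, 66.3 and 68.6 CPM in WT, so that the SRF KO libraries lay close together below all WT libraries. The log2 fold change was -0.22 (SE 0.05, edgeR adjusted p 0.00333). The flavoprotein Sdha was at 228, 229 and 230 CPM against 238, 232 and 240 CPM, also without overlap but with a log2 change of only -0.05 that did not pass (edgeR adjusted p 0.422).

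Sdhc and Sdhd, the membrane anchors, had log2 changes of -0.09 and 0.08 (edgeR adjusted p 0.194 and 0.246). Sdhc was at 84.7, 79.6 and 84.4 CPM in SRF KO and at 92.5, 83.5 and 89.3 CPM in WT, and passed, at -0.13, without WT replicate 2, which made 2 of the 4 subunits lower. Sdhd was at 90.5, 89.5 and 92.9 CPM against 86.5, 80.1 and 90.7 CPM, with overlap. Of the 4 complex II assembly genes Sdhaf1 to Sdhaf4, 1 was lower, Sdhaf4 at -0.29 (log2 change, edgeR adjusted p 0.0468), and DESeq2 called 0.

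Complex III transfers electrons from coenzyme Q to cytochrome c. Of its 8 subunits, 0 passed the threshold with edgeR or with DESeq2, 0 had an unadjusted edgeR p under 0.05, and their log2 changes ran from -0.09 to 0.08, with every 95% interval inside 0.8-fold to 1.25-fold. The core protein Uqcrc1 was at 211, 201 and 216 CPM in SRF KO against 212, 187 and 223 CPM in WT, with overlap. The other core protein, Uqcrc2, was at 154, 148 and 157 CPM against 163, 163 and 163 CPM, and the Rieske iron-sulfur protein Uqcrfs1 at 88.8, 87.6 and 87.5 CPM against 94.4, 92.8 and 91.9 CPM. Both lay lower in every SRF KO library, by -0.09 and -0.08 on the log2 scale (edgeR adjusted p 0.139 and 0.181). Of the 50-base stretches in the transcripts of the subunit gene Uqcrb, 43.2% also occur in transcripts of other genes, so its counts are uncertain. Of the 6 complex III assembly genes, Uqcc2 and Ttc19 were lower at -0.30 and -0.20 and Uqcc3 was higher at 0.29 (log2 fold changes). DESeq2 called 2 of the 6.

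Complex IV, cytochrome c oxidase, held the largest differences. Of its 17 genes with a mean of 10 or more counts, 4 were lower and 1 higher, with a median log2 change of -0.03. Leaving out WT replicate 2 moved that median to -0.09 and leaving out WT replicate 1 to -0.011. It was -0.05 and -0.07 when SRF KO replicates 1 and 3 were left out in turn, and 0.0061 with total counts as the only scaling. The 2 genes that moved by a log2 change of 1 or more are minor isoforms of abundant subunits, and both are known from other work as genes that respond to low oxygen.

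Ndufa4l2 (chr10:127514967-127517154, GRCm38) had 129, 95 and 102 counts in SRF KO and 465, 275 and 348 in WT. This was 4.79, 3.59 and 3.53 CPM against 12.8, 10.7 and 12.1 CPM, far apart between the groups. It fell by 66.7%, a log2 change of -1.59 (SE 0.13, edgeR adjusted p 2.04e-06). Ndufa4, its abundant paralog, was at 107, 112 and 106 CPM against 106, 115 and 103 CPM, a log2 change of 0.00 with a 95% interval from -0.12 to 0.12. Per kilobase of transcript, Ndufa4l2 made up 1.78% ± 0.339 of the pair in SRF KO against 5.15% ± 0.665 in WT (SD, n = 3).

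Cox4i2 (chr2:152754173-152765037, GRCm38) moved in the opposite direction from a low level. It had 50, 35 and 48 counts in SRF KO and 24, 23 and 18 in WT, or 1.86, 1.32 and 1.66 CPM against 0.663, 0.894 and 0.628 CPM. The groups did not overlap, and the log2 fold change was 1.16 (SE 0.22, edgeR adjusted p 0.00135), with a 95% interval from 0.68 to 1.65. Cox4i1, the isoform of most tissues, was at 235, 224 and 228 CPM against 219, 195 and 228 CPM and did not pass (log2 fold change 0.10, edgeR adjusted p 0.216). Cox4i2 remained a small share of the pair per kilobase, 0.721% ± 0.105 in SRF KO against 0.356% ± 0.101 in WT (SD, n = 3).

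Cox7a2l, Cox5a and Cox7c, 3 abundant complex IV genes, fell modestly. Cox7a2l, which encodes a protein that joins complexes III and IV into supercomplexes, was at 95.5, 92.9 and 103 CPM in SRF KO against 124, 122 and 126 CPM in WT, a log2 change of -0.35 (SE 0.05, edgeR adjusted p 0.000284). Cox5a, a subunit on the matrix side, was at 121, 123 and 118 CPM against 150, 151 and 157 CPM, a log2 change of -0.34 (SE 0.05, edgeR adjusted p 0.000144). In both genes every SRF KO library lay below every WT library. The annotation places 41.7% of Cox5a exon bases inside Gm26631, a gene on the opposite strand that was not analysed here, and the use of strand in counting is not given in the sources used here. Its partner in name, Cox5b, was at 109, 99.5 and 112 CPM against 100.6, 105 and 114 CPM, a log2 change of 0.01. Cox7c, at 109, 110 and 102 CPM against 120, 114 and 119 CPM, had a log2 change of -0.14 close to the threshold (edgeR adjusted p 0.0473), and its call was lost without SRF KO replicate 1, 2 or 3, without WT replicate 1 or 3, under DESeq2, with the 3 other scalings and with no filter on low counts. Of the 50-base stretches in the transcripts of Cox7a2l, Cox7c and Cox5b, 17.8%, 23.0% and 21.8% also occur in transcripts of other genes. Their counts are uncertain, and by how much was not measured.

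The other isoforms of complex IV did not pass the threshold. Cox7a1, the isoform of heart and skeletal muscle, was at 5.24, 5.63 and 5.32 CPM in SRF KO and at 6.85, 5.09 and 5.54 CPM in WT. Cox7a2, the common isoform, was at 72.3, 73.3 and 67.5 CPM against 79.2, 63.6 and 72.0 CPM. Their log2 fold changes were -0.12 and -0.01, and both sets of values overlapped. With the fall of Cox7a2l, the share of Cox7a2 among the 3 Cox7a-named genes per kilobase was 51.8% ± 2.25 in SRF KO against 46.3% ± 2.15 in WT (SD, n = 3), without overlap. Cox6b2, known from testis, was at 25.8, 21.1 and 25.4 CPM against 29.5, 21.8 and 27.8 CPM, and made up 21.5% ± 1.31 of the Cox6b pair per kilobase in SRF KO against 23.8% ± 1.34 in WT (SD, n = 3). Cox6a1, Cox6b1, Cox7b and Cox8a had log2 changes of 0.06, 0.06, -0.11 and -0.03 and did not pass. Without WT replicate 2, Cox6b2 and Cox8a passed, at -0.25 and -0.15.

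Cox8b, Cox6a2, Cox8c and Cox7b2 had few counts. Cox8b had 0 counts in all 6 libraries, which allows up to 3 counts or 0.117 CPM in the shallowest library. Cox6a2, the muscle isoform, had at most 4 counts and Cox8c at most 6, and no fold is given for them. Cox7b2 had between 4 and 19 counts and a log2 change of -0.53 with a 95% interval from -1.40 to 0.34, the widest among the members tested. Of 22 complex IV assembly genes, 1 was higher and 2 were lower. These were the copper chaperone Sco2 at 0.50, the insertion factor Cox18 at -0.33 and the mitochondrial RNA-binding protein Lrpprc at -0.16 (log2 fold changes).

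**Figure D3:**
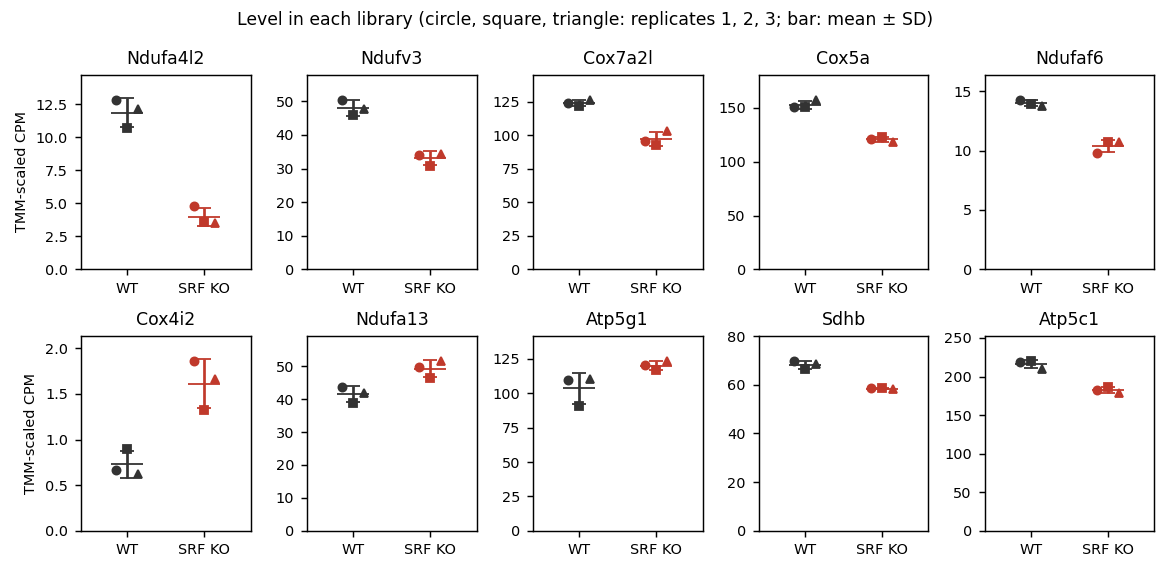
TMM-scaled CPM (y axis, from 0) of 10 of the 20 genes past the threshold in each WT (black) and SRF KO (red) library, with bars for the mean ± SD. In every panel the 3 SRF KO values lie apart from the 3 WT values, with the largest relative gap in Ndufa4l2.

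Complex V makes ATP with a rotating membrane ring and a catalytic head, F1. Of its 15 subunits, 2 were lower and 1 higher (20.0%, against 41.1% of all entries). Negative fold changes were found for 13, a share that was not counted over all entries. The median was -0.07, against -0.02 over all entries. Dropping SRF KO replicate 2 or WT replicate 1 gave medians of -0.040 and -0.043, and total counts as the only scaling gave -0.029. The 2 falls were in F1, where 40.0% of the 5 genes were called, close to the 41.1% of all entries. Atp5c1, the central stalk that turns inside the head, was at 183, 186 and 178 CPM in SRF KO against 219, 220 and 210 CPM in WT, a log2 change of -0.24 (SE 0.05, edgeR adjusted p 0.00146). Atp5a1, the alpha subunit, was at 902, 897 and 893 CPM against 1087, 944 and 1022 CPM, a log2 change of -0.18 (SE 0.06, edgeR adjusted p 0.0227), and its call was lost with total counts as the only scaling and without SRF KO replicate 1, 2 or 3 or WT replicate 1. The catalytic beta subunit Atp5b, the most abundant member per kilobase of transcript, was at 1487, 1464 and 1497 CPM against 1574, 1494 and 1549 CPM. Its groups overlapped by a few CPM, with a log2 change of -0.05 (edgeR adjusted p 0.392).

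Atp5g1, Atp5g2 and Atp5g3 encode the same mature c subunit of the membrane ring with different import sequences. Of the 50-base stretches in the Atp5g1 and Atp5g2 transcripts, 10.2% and 38.3% also occur in transcripts of other genes. The counts of these 2 genes are uncertain, and by how much was not measured. Atp5g1 was the only complex V gene that rose, at 121, 117 and 123 CPM in SRF KO against 110, 90.8 and 111 CPM in WT, a log2 change of 0.21 (SE 0.07, edgeR adjusted p 0.0329). Its call was lost when SRF KO replicate 1 (edgeR adjusted p 0.0923) or SRF KO replicate 3 (0.119) was left out. Atp5g2 was at 152, 145 and 149 CPM in SRF KO against 169, 136 and 174 CPM in WT, and Atp5g3 at 153, 155 and 149 CPM against 160, 145 and 168 CPM. Their log2 fold changes were -0.10 and -0.05 and did not pass. Without WT replicate 2 both passed, at -0.20 and -0.11, and 6 of the 15 subunits were lower. Leaving out any 1 of the SRF KO libraries or WT replicate 1 gave 1 subunit lower, and leaving out SRF KO replicate 1 or 3 gave 0 higher.

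Of the other Atp5-named genes, Atp5s, known as coupling factor B, was at 4.98, 4.91 and 5.67 CPM in SRF KO and at 7.65, 7.62 and 7.04 CPM in WT, a fall of 0.52 on the log2 scale (SE 0.10, edgeR adjusted p 0.00166). Atp5sl, now named Dmac2 for its part in complex I assembly, was at 32.9, 31.95 and 31.3 CPM against 34.5, 30.7 and 31.97 CPM and had a log2 change of -0.02. The 4 complex V assembly and inhibitor genes Atpaf1, Atpaf2, Tmem70 and Atpif1 had 0 calls with edgeR and 0 with DESeq2, and 1 had an unadjusted edgeR p under 0.05.

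Summed over its members after TMM scaling, each complex had a slightly lower mean in SRF KO. After TMM scaling the 89 genes summed to 8617, 8412 and 8578 CPM in SRF KO against 9199, 8631 and 9094 CPM in WT, with the lowest WT library, replicate 2, just above the highest SRF KO library. Complex V summed to 3933 ± 34.0 CPM in SRF KO against 4189 ± 145 CPM in WT (SD, n = 3), or 93.9% of the WT mean, and on this scale all SRF KO libraries lay below all WT libraries. The sums of complexes I, II, III and IV stood at 95.95%, 96.3%, 97.4% and 95.5% of the WT mean, each with an SRF KO library above WT replicate 2. As shares of all counts, without TMM scaling, the groups overlapped: the 89 genes took 0.876%, 0.843% and 0.873% in SRF KO against 0.908%, 0.844% and 0.906% in WT, and complex V took 0.403%, 0.390% and 0.401% against 0.426%, 0.394% and 0.421%. The unscaled shares of complexes I to IV overlapped too. Complex I took 0.186%, 0.176% and 0.184% in SRF KO against 0.189%, 0.176% and 0.19% in WT. Complex II took 0.0469%, 0.0457% and 0.0474% against 0.048%, 0.0451% and 0.0486%. For complex III they were 0.0783%, 0.0752% and 0.0782% against 0.0787%, 0.0741% and 0.0793%. For complex IV they were 0.144%, 0.138% and 0.144% against 0.148%, 0.137% and 0.15%. The sums weight each gene by its counts and carry no test.

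**Figure D4:**
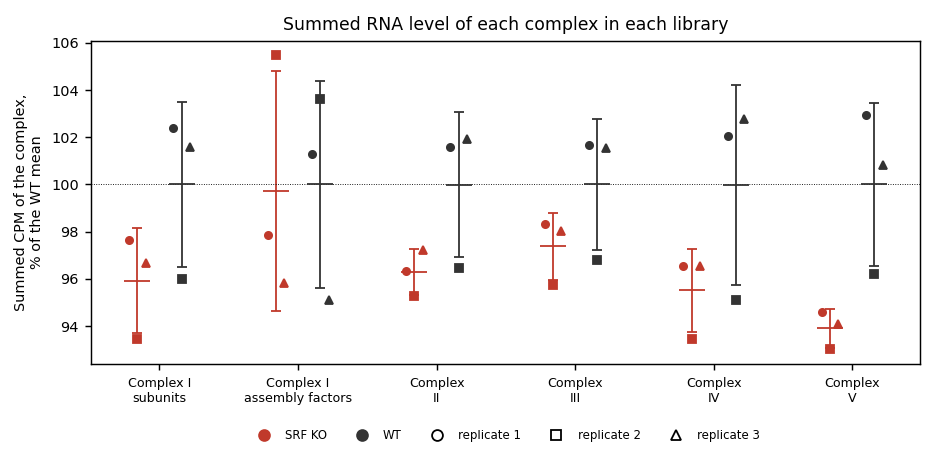
Summed TMM-scaled CPM of the genes of each complex in each library (y axis, percent of the WT mean of that complex; the axis does not start at 0), with SRF KO in red, WT in black, symbols for replicates and bars for the mean ± SD. WT replicate 2 (black squares) lies near the SRF KO values in complexes I to IV, and among the groups drawn only complex V has all SRF KO values below all WT values, a separation that is lost on shares of total counts.

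Genes around the chain were counted from separate lists, beside the same 41.1% of all entries. Of 17 genes of pyruvate dehydrogenase and the citric acid cycle, 4 were lower and 0 higher, with a median log2 change of -0.07. DESeq2 called 3 of the 17. Pdha1, the catalytic subunit that feeds pyruvate into the cycle, fell from 285 ± 11.3 to 226 ± 2.55 CPM (SD, n = 3; log2 fold change -0.34, edgeR adjusted p 0.000184), and Fh1 and Idh3a had log2 changes of -0.22 and -0.155. Of 18 genes of mobile carriers, coenzyme Q synthesis and electron transfer to coenzyme Q, DESeq2 called 5. With edgeR 4 were higher and 4 lower. Among them Dhodh, which passes electrons from pyrimidine synthesis to coenzyme Q, rose by 0.24, and the coenzyme Q synthesis genes Coq2 and Coq5 fell by 0.37 and 0.28 on the log2 scale. Cytochrome c (Cycs) was at 142 ± 2.81 CPM in SRF KO against 151 ± 16.2 CPM in WT (SD, n = 3) and did not pass (edgeR adjusted p 0.313).

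Ucp2, an inner-membrane carrier of the uncoupling protein family, had the largest fall of these lists. Its level was 73.6 ± 1.97 CPM in SRF KO against 134 ± 15.6 CPM in WT (SD, n = 3), a log2 change of -0.87 (SE 0.08, edgeR adjusted p 3.88e-06). The adenine nucleotide carriers Slc25a4 and Slc25a5 moved in opposite directions, at 0.28 and -0.19. Of 14 tested regulators of mitochondrial biogenesis, Pprc1 was higher at 0.17, and Tfb1m, which methylates mitochondrial ribosomal RNA, and Gabpa were lower at -0.46 and -0.21 (log2 fold changes). Mitochondrial ribosomal protein genes had 1 higher and 2 lower of 77, with a median log2 change of -0.02. The import list had 3 higher and 2 lower of 25 tested, with a median of 0.08. Its 2 lower genes were Tomm34 and Timmdc1, and Timmdc1 was also counted above among the complex I assembly genes. DESeq2 called 2 of the 77 and 6 of the 25.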

How the data were processed

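Deposited values were whole-number counts of reads per gene and per transposable element subfamily, 1 column per library, without normalization, judged from the values. Per the labels' protocols, the authors removed adaptor, low-quality and empty reads from paired reads of 150 bp. The submitters' processing notes name mm10 and DESeq2. The aligner, counter, annotation and use of strand are not given in the sources used here, so genes with pseudogenes or overlapping genes are uncertain. Library totals were 26321602 to 36680156 counts, and the floor of 3 counts covers counting error only.

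The 25567 entries went into 1 fit with edgeR 4.0.16 (R 4.3.3): filterByExpr (minimum count 10), TMM scaling, quasi-likelihood test, Benjamini-Hochberg adjustment over the 15611 entries kept, threshold 0.05. All 89 reported members were tested. Alternatives were DESeq2 1.42.0, RLE, upper quartile and total-count scaling, no filter, gene entries alone, an adjusted p of 0.01, a replicate block and leaving out each library. The fit was first tested on simulated data with 200 entries changed by an absolute log2 of 0.5, 1 or 2. It recovered 78.5%, 94% and 100% of these, and 6.74% of its calls were false. Changes under 0.5, where most called members lie, were not simulated. The simulation also differed from the data in 2 ways. It changed 200 entries, whereas 41.1% of all entries were called in the data. It gave both groups the same spread, whereas the members' median coefficient of variation was 3.86% in SRF KO and 7.06% in WT. Its rates may therefore not hold for the data.

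Replicate pairs differed by a chi-square per degree of freedom of 1.79 to 14.6, so each library counted as 1 replicate. GENCODE M21 (GRCm38) gave positions, overlaps and transcript length (median over protein-coding transcripts). Members and lists were chosen with earlier results of these data known. The genes named are up to 4 per complex and direction by smallest adjusted p, those with an absolute log2 fold change of 1 or more, the highest CPM of each complex, the Sdh genes, the isoform families and up to 3 per list; others were chosen after their values were seen. Of the genes this rule names, 1 is not reported here.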

Additional observations from a re-analysis of the deposited data

How the results depend on the processing

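At an adjusted p under 0.01, 2 members were higher and 10 lower, a loss that a stricter threshold gives by construction. Across the 6 fits that each left out 1 library, the members higher were between 2 and 4 and those lower between 11 and 27, with 27 without WT replicate 2, while the share of all entries called ran from 30.4% to 48.1% (48.1% without WT replicate 2). Of the 20 calls, 11 were also made in each of 13 other fits (Atp5c1, Atp5s, Cox4i2, Cox5a, Cox7a2l, Ndufa4l2, Ndufa6, Ndufaf6, Ndufv2, Ndufv3 and Sdhb). With total counts as the only scaling, the complex I and IV medians turned to 0.02 (0.0205) and 0.0061, and 4 calls were lost (Atp5a1, Cox7c, Ndufb10 and Ndufc1). When 1 library was left out, the complex I median was between -0.056 and 0.0067, that of the assembly factors between -0.21 and -0.084, of complex II between -0.093 and -0.051, of complex III between -0.073 and -0.020, of complex IV between -0.089 and -0.011 and of complex V between -0.092 and -0.040. The complex V median was -0.029 with total counts alone. The cause was not tested.

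Some members that did not pass changed sign near 0. With total counts alone Cox7a2 was at 0.022 and Cox8a at 0.0061, and with gene entries alone Ndufa4 was at -0.0005. With 1 library left out, Cox6b1 was between -0.0025 and 0.13, Cox7a1 between -0.21 and 0.020, Cox7a2 between -0.089 and 0.066, Cox8a between -0.15 and 0.049, Ndufa4 between -0.031 and 0.048, and Uqcrc1 between -0.051 and 0.067.

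A replicate block gave 4 members higher and 21 lower, with 5 rather than 2 lower in complex V, and called 49.4% of all entries against 41.1%. The shared numbers were not taken as pairing: deviations from the group means correlated by 0.0474, 0.279 and 0.148 for numbers 1 to 3, and not every library correlated best with its own number. Depth limits Cox4i2, Cox7b2 and the isoforms at the floor.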
